A study of Mus musculus with 23 samples.

Results

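The genes described here encode the subunits of the mitochondrial respiratory chain and ATP synthase, sorted into complexes I to V and by the genome that encodes them. They were chosen by symbol: Ndufa, Ndufb, Ndufc, Ndufs and Ndufv genes, Ndufab1, Sdha to Sdhd, and symbols starting with Uqcr, Cox4 to Cox8, Atp5, mt-Nd, mt-Co, mt-Cyt or mt-Atp. Of 104 matching symbols, 6 pseudogene symbols ending in -ps and Cox6a2 were left out, which gave 97 genes among the 47729 of the count table. Nuclear genes made up 84 of them, with 36 in complex I, 4 in complex II, 8 in complex III, 19 in complex IV and 17 in complex V. The mitochondrial genome holds the other 13, with 7 in complex I, 1 in complex III, 3 in complex IV and 2 in complex V.

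The respiratory chain is a series of protein complexes in the inner mitochondrial membrane. Complex I (NADH dehydrogenase) and complex II (succinate dehydrogenase) pass electrons to coenzyme Q, complex III passes them on to cytochrome c, complex IV (cytochrome c oxidase) hands them to oxygen, and complex V (ATP synthase) uses the resulting proton gradient to make ATP. In complexes I, III and IV a few large core subunits hold the redox centres and many small accessory subunits surround them; complex II has no subunit encoded in mitochondrial DNA. Dendritic cells take up antigen and present it to T cells, and the balance between oxidative metabolism and glycolysis is known to shift when they are activated.

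RNA was sequenced from 4 populations of dendritic cells sorted from the spleens of wild-type Balb/C mice, either untreated or given TLI, an abbreviation that the labels do not expand. DC1a cells were sorted as CD8hi CD172-, DC1b cells as CD8Int CD172+, DC2 cells as CD8lo CD172hi and DC3 cells as CD8- CD172lo; each library came from a pool of mice. Each untreated population had 2 libraries (pools 1 and 2), and TLI DC1a, DC1b and DC3 cells had 4 (pools 1 to 4), whereas TLI DC2 cells had 3 (pools 1, 3 and 4), 23 libraries in all. By the labels, all untreated libraries and the TLI pools 1 and 2 belonged to batch 1, and the TLI pools 3 and 4 to batch 2, so that the TLI libraries of batch 2 had no untreated libraries beside them. Library totals ran from 19256447 to 36997890 counts. The 4 summed dendritic cell markers (Flt3, Itgax, H2-Ab1 and Zbtb46) lay between 2536 and 26335 CPM (counts scaled to a common library size) in every library. The 5 markers of DC1 cells summed to 2247 and 2550 CPM in untreated DC1a cells and to 177 and 182 CPM in untreated DC2 cells, whereas the DC2 markers summed to 573 and 665 CPM in untreated DC2 cells and to 8.54 and 14.3 CPM in untreated DC1a cells.

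Some libraries stood apart in markers of other cells. The 5 erythroid markers, which are haemoglobin genes and Alas2, summed to 51.1 to 2137 CPM in the untreated libraries, to 18529 to 137555 CPM in the TLI libraries of batch 1 and to 171 to 7905 CPM in those of batch 2. Neutrophil markers reached 23290 CPM in TLI DC1b cells, natural killer cell markers 2624 CPM in TLI DC3 cells, and plasmacytoid dendritic cell markers lay at 2392 and 2807 CPM in untreated DC1b cells. In such bulk samples, a lower level can come from fewer cells of a type or from less RNA per cell, and these cannot be told apart.

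**Figure D1:**
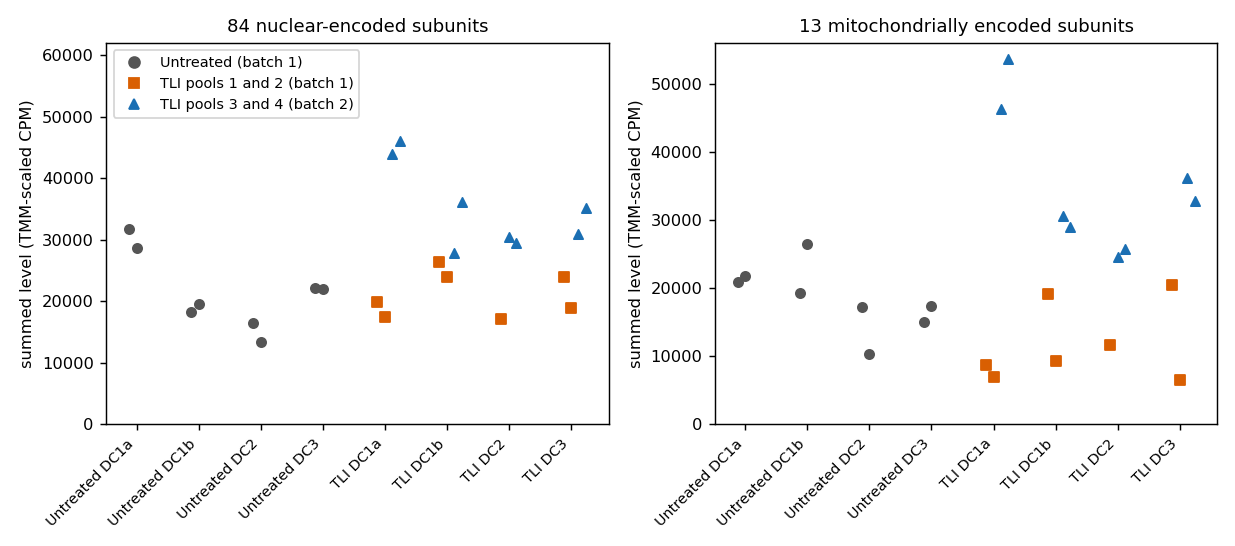
Summed level of the nuclear-encoded (left) and mitochondrially encoded (right) subunits, in CPM scaled by TMM factors, with 1 point for each library by population and treatment; the marker shows the treatment and batch. Nuclear sums were highest in DC1a cells among the untreated libraries (31741 and 28683), and in both panels the TLI pools 3 and 4 lay above the TLI pools 1 and 2 of the same population.

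All levels are given as CPM scaled by TMM factors, edgeR's correction for library composition. The summed level of the 84 nuclear genes was 31741 and 28683 CPM in untreated DC1a cells (pools 1 and 2), 18145 and 19464 in DC1b cells, 16381 and 13428 in DC2 cells and 22147 and 21921 in DC3 cells. The DC1a libraries were above all 6 others, the DC2 libraries below all others, and no untreated population overlapped another. The 13 mitochondrial genes summed to 20905 and 21807 CPM in DC1a cells, 19263 and 26509 in DC1b cells, 17271 and 10356 in DC2 cells and 15057 and 17341 in DC3 cells. Here the DC1a libraries fell between the DC1b libraries, and the DC2 and DC3 libraries overlapped. As shares of all counts, the nuclear genes took 1.49% to 3.86% and the mitochondrial genes 0.652% to 4.51% of a library. Near-identical copies of these genes, described below, took 0.328% to 2.56%, so the sums and shares may be too low.

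Levels of different genes were compared per kilobase of annotated exon, as the median over the 23 libraries. The mitochondrial genes of complex IV led, with mt-Co3 at 5784, mt-Co1 at 3702 and mt-Co2 at 2804 CPM per kilobase, ahead of mt-Cytb of complex III at 2462 and mt-Nd1 of complex I at 1823. Among nuclear genes the small subunits Cox6b1 (1196 CPM per kilobase), Cox8a (1192), Ndufa1 (1133), Cox6a1 (1075) and Ndufa2 (1037) led. Some large subunits were far lower. Ndufs1, which carries iron-sulphur clusters of complex I, was at 4.3 CPM per kilobase, and Ndufv1, which binds NADH, at 10.7. Sdha, the flavoprotein of complex II, was at 20.5, and Uqcrc1, a core protein of complex III, at 25.5. Libraries differed widely within a gene, since mt-Co3 ran from 1845 to 16307 CPM per kilobase, so neighbours in this order such as Cox6b1 and Cox8a did not differ beyond their spread.

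Several subunits have tissue-restricted copies, and the common form of each carried the RNA. Cox8b and Cox8c had no counts in any library, Cox7b2 had 2 counts in total, and Cox4i2, the lung form of subunit 4, had 21 counts, all in TLI DC2 pool 1. These 4 genes were too low for the test, so 93 genes (80 nuclear and 13 mitochondrial) were tested. Cox6b2, a testis form, ran from 0 to 27.8 CPM against 472 to 1693 CPM for Cox6b1. Cox7a1, the form of heart and muscle, ran from 0 to 25.3 CPM against 240 to 1930 CPM for Cox7a2. The 3 genes for subunit c of ATP synthase were all expressed, Atp5g1 at 221 to 873, Atp5g2 at 95.5 to 339 and Atp5g3 at 180 to 709 CPM.

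Mitochondrial genes are hard to assign reads to. mt-Atp8 (chrM:7766-7969, plus strand) and mt-Atp6 (chrM:7927-8607, plus strand) share 43 bases, and the nuclear copy Gm10925 matches mt-Atp6 base for base over its first 678 bases. The sequences, from the GENCODE transcripts of GRCm38, show the shared stretch in capitals; all of mt-Atp8 and the start of mt-Atp6 are given:
mt-Atp8: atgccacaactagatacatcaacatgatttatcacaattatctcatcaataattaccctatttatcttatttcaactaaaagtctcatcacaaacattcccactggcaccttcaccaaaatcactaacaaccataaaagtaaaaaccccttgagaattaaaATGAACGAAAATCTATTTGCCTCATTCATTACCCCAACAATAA
mt-Atp6: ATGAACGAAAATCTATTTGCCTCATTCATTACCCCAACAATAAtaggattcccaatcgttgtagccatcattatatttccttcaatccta

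Reads of this stretch can be given to either gene or to the copy. In the count table, Gm10925 held 378% as many counts as mt-Atp6, and near-identical copies (at least 95% identity over 150 bases) held 97.8% as many as mt-Co3, 98.8% as many as mt-Co2, 101% as many as mt-Nd3 and 47.6% as many as mt-Co1. Of the 97 genes, 33 had such a copy, and in 15 the copies held more than 10% of the gene's own counts, with Ndufa12 (42.9%) and Atp5g1 (42.2%) leading the nuclear genes. The levels of these genes are uncertain to that extent. With the reads of the copies added to the genes, no count of genes past the threshold given below moved by more than 1 gene. An exon on the opposite strand overlaps 28 of the 97 genes, some of which also have such a copy, and no source says whether reads were counted by strand, so reads from overlapping genes may not be separable.

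Untreated populations were each set against DC1a cells. The test was edgeR's quasi-likelihood test in a single fit of all 23 libraries with a term for batch, and adjusted p is Benjamini-Hochberg adjusted over the 19597 genes tested. The comparison asks how DC1b, DC2 and DC3 cells differ in the RNA of the respiratory chain from DC1a cells of the same mice.

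In untreated DC2 cells as compared to DC1a cells, 9 of the 93 genes were lower at an adjusted p under 0.05 and none was higher; over all genes tested, 1.05% were called lower. At an unadjusted p under 0.05, 46 of the 93 were lower, against 6.59% of all genes, and DESeq2 called 21 lower, against 4.91%. The log2 fold change was below 0 in 72 of the 80 nuclear genes, with a median of -0.96, and in all 13 mitochondrial genes, with a median of -0.37, while the median of all genes tested was 0.11. All 9 called genes were nuclear, 3 in complex I, 1 in complex IV and 5 in complex V.

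In complex I, the accessory membrane subunit Ndufb11 (chrX:20615326-20617619, minus strand; GRCm38) stood at 718 and 632 CPM in DC1a pools 1 and 2, and at 218 and 159 CPM in DC2 pools 1 and 2. The DC2 libraries lay below the DC1a, DC1b and DC3 libraries (339 to 718 CPM), with a log2 fold change of -1.84 ± 0.31 (SE, adjusted p = 0.0035). Its exon overlaps Rbm10 on the other strand. Ndufa13, also known as GRIM-19, was at 480 and 471 CPM in DC1a and at 190 and 200 CPM in DC2 cells, a log2 fold change of -1.29 (adjusted p = 0.0342). Ndufb6 was at 189 and 187 CPM in DC1a and at 84.5 and 51.6 CPM in DC2 cells, and fell by 1.47 on the log2 scale (adjusted p = 0.044).

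In complex IV, Cox7b, a small subunit of cytochrome c oxidase, was at 696 and 703 CPM in DC1a and at 223 and 181 CPM in DC2 cells, a log2 fold change of -1.79 ± 0.43 (SE, adjusted p = 0.0418). Cox4i1, the common form of subunit 4, was at 790 and 795 CPM in DC1a and at 453 and 296 CPM in DC2 cells, and did not pass the test (adjusted p = 0.246). For Cox5a, its partner in the complex, the log2 fold change was -0.74 (adjusted p = 0.3).

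Complex V gave the most calls. Atp5g3, for subunit c of the rotor ring, was at 709 and 558 CPM in DC1a, 327 and 341 CPM in DC1b, 267 and 180 CPM in DC2 and 379 and 512 CPM in DC3 cells. DC1a cells were above all other untreated libraries and DC2 cells below all of them, with a log2 fold change of -1.50 for DC2 against DC1a cells (adjusted p = 0.0053). Atp5o, for the OSCP subunit of the stalk that links the rotor housing to the catalytic head, was at 458 and 447 CPM in DC1a and at 159 and 135 CPM in DC2 cells, a log2 fold change of -1.62 ± 0.31 (SE, adjusted p = 0.00864). Atp5j2 (-1.48), Atp5g2 (-1.69) and Atp5e (-1.63), for the membrane subunit f, a further gene of subunit c and the epsilon subunit of the central stalk, had adjusted p of 0.0197, 0.0376 and 0.0445. With the pool of mice as a block, 7 of the 9 calls in DC2 cells were kept, and Ndufa13 (adjusted p = 0.0601) and Atp5e (adjusted p = 0.0519) were not. Atp5b and Atp5a1, of the catalytic head, went the other way in direction without passing the test. Atp5b was at 241 and 205 CPM in DC1a and at 244 and 340 CPM in DC2 cells (log2 fold change 0.39, adjusted p = 0.821), and Atp5a1 at 127 and 171 and at 173 and 269 CPM (0.57, adjusted p = 0.639).

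**Figure D2:**
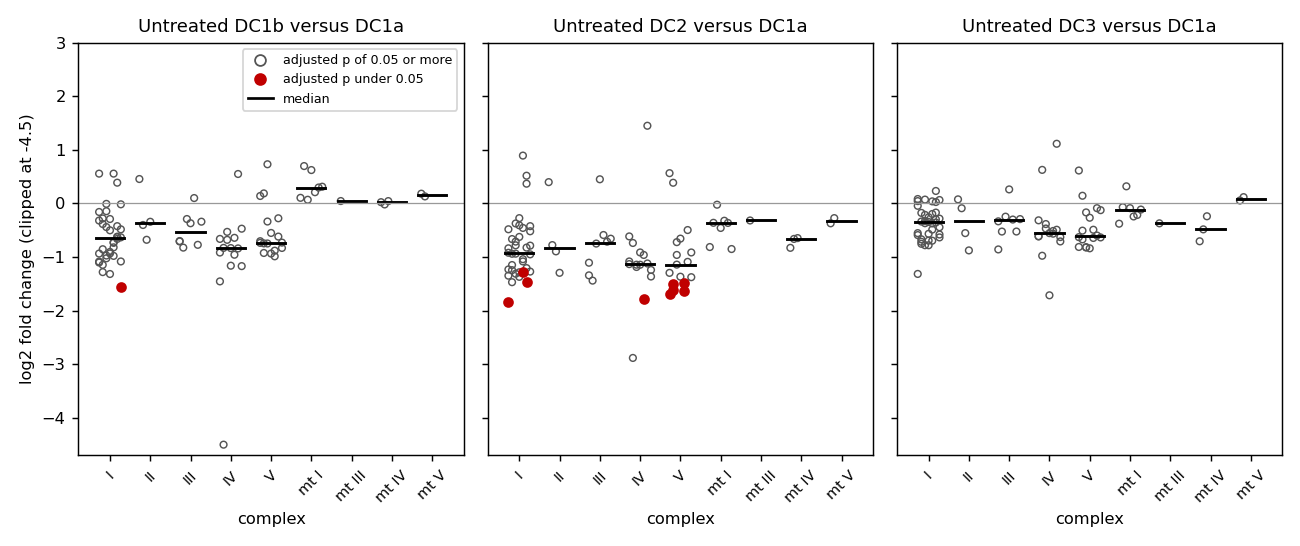
Log2 fold change of each tested subunit gene in untreated DC1b, DC2 and DC3 cells versus DC1a cells, by complex and with the mitochondrially encoded genes (mt) apart; filled red points have an adjusted p under 0.05, bars are medians, and 1 value below the axis is drawn at its lower edge. In DC2 cells all 9 called genes were lower, and the medians of the nuclear genes lay between -0.73 (complex III) and -1.14 (complex V).

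Between untreated DC2 and DC1a cells the difference went with coding length. In DC2 as compared to DC1a cells, the 68 nuclear genes with a coding length under 900 bases had a median log2 fold change of -1.10 (67 below 0), whereas the 11 with 900 bases or more had a median of 0.39 (4 below 0). Summed, the longer genes were at 1419 and 1241 CPM in DC1a, 1211 and 1314 CPM in DC1b, 1214 and 1459 CPM in DC2 and 1379 and 1310 CPM in DC3 cells, and these groups overlapped. The shorter genes summed to 30307 and 27429, 16927 and 18143, 15160 and 11963, and 20758 and 20602 CPM in the same order, without overlap. Across the 79 nuclear genes with a known coding length, Pearson's r between log2 coding length and log2 fold change was 0.59 (Spearman's rho 0.48), as compared to 0.13 (0.20) across 13939 other protein-coding genes of the same libraries. Among those other genes the median log2 fold change also rose with length, from -0.41 (287 genes under 300 bases) to 0.63 (6102 genes of 1500 bases or more). Under TLI, the same pair of populations gave an r of -0.04 (rho -0.03) across the 79 genes. Untreated DC1b and DC3 against DC1a cells gave an r of 0.26 and 0.22 (rho 0.28 and 0.11). The other pairs under TLI ran from -0.54 (DC1b versus DC1a) to 0.52 (DC3 versus DC1b). TLI against untreated cells gave an r of 0.78 in DC1a, 0.09 in DC1b, 0.40 in DC2 and 0.74 in DC3 cells. These correlations are across genes, which share libraries and are not independent. The part of transcript length in the DC2 difference was not tested.

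Leaving out 1 library cut the 9 calls in DC2 cells to 1 (without DC1a pool 1 or without DC2 pool 2) or 2 (without DC1a pool 2 or without DC2 pool 1); the lone library of the group is then assumed to vary like the others. Erythroid markers were uneven among these libraries, at 1618 and 140 CPM in DC1a and 2137 and 66.3 CPM in DC2 pools 1 and 2. The monocyte and macrophage markers went with the populations, at 795 and 815 CPM in DC1a and 5263 and 4723 CPM in DC2 cells, and the part of either list in the difference was not tested.

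In untreated DC1b cells as compared to DC1a cells, 1 of the 93 genes was lower at an adjusted p under 0.05, against 0.316% of all genes, and 26 were lower at an unadjusted p under 0.05, against 5.1% of all genes. DESeq2 called 6 lower, against 2.55% of all genes. Ndufb7, an accessory subunit of complex I, was at 513 and 494 CPM in DC1a and at 205 and 137 CPM in DC1b cells, while DC3 cells were at 425 and 403 CPM; the log2 fold change of DC1b against DC1a cells was -1.56 ± 0.33 (SE, adjusted p = 0.0326). With the pool of mice as a block this gene was past the threshold no longer (adjusted p = 0.0548), and no gene was called without any 1 of the 4 libraries. Markers of other cells were higher in DC1b than in DC1a cells, at 2392 and 2807 against 53.4 and 84.6 CPM for plasmacytoid dendritic cells and at 2984 and 5028 against 795 and 815 CPM for monocytes and macrophages, and their part was not tested. The median log2 fold change was -0.69 over the nuclear genes (71 of 80 below 0) and 0.13 over the mitochondrial genes (1 of 13 below 0), beside 0.07 over all genes tested. The mitochondrial genes were not past the threshold in either direction: mt-Nd1 was at 1745 and 1968 CPM in DC1a and 1843 and 2152 CPM in DC1b cells, and mt-Nd2 was at 421 and 461 and at 747 and 684 CPM. By complex, the nuclear medians ran from -0.37 (complex II) to -0.83 (complex IV), and Cox4i1 was at 372 and 207 CPM in DC1b cells, a log2 fold change of -1.45 that did not pass (adjusted p = 0.135).

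In untreated DC3 cells as compared to DC1a cells, edgeR called 0 of the 93 genes (0.184% of all genes were called); 6 were past an unadjusted p of 0.05, all lower, against 7.47% of all genes, and DESeq2 called 1, against 3.98%. The median log2 fold change was -0.48 over the nuclear genes and -0.21 over the mitochondrial genes. The lowest was Cox7a2l, which encodes a factor of the supercomplexes of complexes III and IV and was placed in complex IV by its symbol. Cox7a2l was at 367 and 230 CPM in DC1a, 129 and 138 CPM in DC1b, 180 and 137 CPM in DC2 and 86.7 and 95.4 CPM in DC3 cells. DC3 cells lay below all other untreated libraries for this gene, with a log2 fold change of -1.71 ± 0.35 against DC1a cells (SE, adjusted p = 0.0614).

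Promoters of the nuclear genes were searched for 2 motifs, since genes of the respiratory chain are known targets of the factor NRF1 and of ETS-family factors such as GABP. RefSeq promoters of GRCm38.p6, 300 bases each with 250 before the start and 50 after it, were at hand for 67 of the 84 nuclear genes. The core of the NRF1 motif, CGCATGCG, which reads the same on both strands, was found in 9 of them (13.4%), Atp5g2, Atp5j, Atp5k, Atp5l, Cox6a1, Ndufa11, Ndufa8, Uqcr11 and Uqcrc1, and in 2.07% of the 27025 genes with a promoter. The ETS motif CCGGAAGT, on either strand, was found in 5 (7.46%), Atp5h, Cox8a, Ndufs3, Uqcr11 and Uqcrh, and in 4.31% of all genes. The 200 bases before the start are shown for 1 gene with each motif and for Ndufb11, the gene with the lowest adjusted p in DC2 cells. Capitals mark a motif that lies whole within the stretch shown, and Ndufb11 held neither in its 300 bases. Uqcr11 also held the NRF1 motif in its 300 bases, but not whole within the stretch shown, so it is not in capitals. All 3 genes lie on the minus strand, and the regions are chr15:102671048-102671247 for Atp5g2, chr10:80406822-80407021 for Uqcr11 and chrX:20617620-20617819 for Ndufb11:
Atp5g2: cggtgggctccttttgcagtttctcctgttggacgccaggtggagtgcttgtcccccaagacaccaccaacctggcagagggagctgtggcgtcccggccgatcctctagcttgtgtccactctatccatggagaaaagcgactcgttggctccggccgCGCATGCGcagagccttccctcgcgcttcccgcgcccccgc
Uqcr11: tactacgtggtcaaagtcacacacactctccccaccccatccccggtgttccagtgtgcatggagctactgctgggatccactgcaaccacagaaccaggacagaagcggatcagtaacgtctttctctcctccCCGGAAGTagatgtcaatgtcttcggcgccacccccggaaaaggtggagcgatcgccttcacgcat
Ndufb11: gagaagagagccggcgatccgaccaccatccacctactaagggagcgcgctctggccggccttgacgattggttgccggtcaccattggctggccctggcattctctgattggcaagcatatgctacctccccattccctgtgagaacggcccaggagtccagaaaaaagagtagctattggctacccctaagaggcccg

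A match describes these letters and is not a binding site. In untreated DC2 cells, Atp5g2 was called lower, whereas Uqcrc1, with the same motif, had a log2 fold change of 0.45 (adjusted p = 0.881).

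The same populations were compared within the TLI mice. In TLI DC2 cells as compared to TLI DC1a cells, 3 of the 93 genes were lower and none higher at an adjusted p under 0.05, with 1.3% of all genes lower, and DESeq2 called 6 lower, against 6.07%. Ndufb11 was called again: it was at 365, 306, 831 and 770 CPM in DC1a pools 1 to 4 and at 219, 341 and 348 CPM in DC2 pools 1, 3 and 4, so that within each batch DC1a cells were above DC2 cells, although DC1a pool 2 lay below the DC2 libraries of batch 2. Its log2 fold change was -0.95 ± 0.23 (SE, adjusted p = 0.0309). Cox7a2l was at 222, 254, 355 and 327 CPM in DC1a and at 95.7, 203 and 152 CPM in DC2 cells, without overlap (log2 fold change -1.06, adjusted p = 0.0402). With the pool of mice as a block, its adjusted p was 0.0503. Atp5d, for the delta subunit of the central stalk, was at 243, 225, 107 and 97.2 CPM in DC1a and at 102, 30.7 and 30.3 CPM in DC2 cells (log2 fold change -1.50, adjusted p = 0.047). The median log2 fold change was -0.27 over the nuclear genes, as compared to 0.02 over all genes tested. Without TLI DC2 pool 1, DC1a pool 3 or DC1a pool 4 no gene was called, and without any other 1 library of the comparison 1 was; fitted with the untreated libraries, the TLI pools of batch 1 alone, with 1 DC2 library, gave 0 calls and those of batch 2 alone gave 5, all lower.

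In TLI DC3 as compared to TLI DC1a cells, Cox7a2l was the only call of the 93 genes (0.367% of all genes were lower): DC3 cells were at 80.3, 121, 136 and 192 CPM in pools 1 to 4, all below the 4 DC1a libraries, with a log2 fold change of -1.15 ± 0.25 (SE, adjusted p = 0.0371). The call was kept without TLI DC3 pool 4 and lost without any other 1 of the 8 libraries. It was lost too within each batch, where 0 genes were called. The untreated comparison of the same populations, given above, shares no library with this one, but Cox7a2l did not pass the threshold there. Both comparisons came from the same fit.

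The other pairs of TLI populations gave no calls by edgeR. TLI DC1b versus DC1a cells gave 0 calls of the 93 genes by edgeR (1.42% of all genes), 3 at an unadjusted p under 0.05 (13.6%) and 0 by DESeq2 (7.56%). DC2 versus DC1b cells gave 0 (0.214%), 8 (10.4%) and 3 (4.81%), DC3 versus DC1b cells 0 (1.11%), 2 (11.9%) and 2 (6.41%), and DC3 versus DC2 cells 0 (1.37%), 5 (13.2%) and 2 (7.8%), in the same order. At an unadjusted p the share of subunit genes was below that of all genes in each of these comparisons. The nuclear median of DC1b against DC1a cells was 0.02 over all TLI pools, but 0.64 with the TLI pools of batch 1 and -0.41 with those of batch 2, so its direction turned with the batch.

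**Figure D3:**
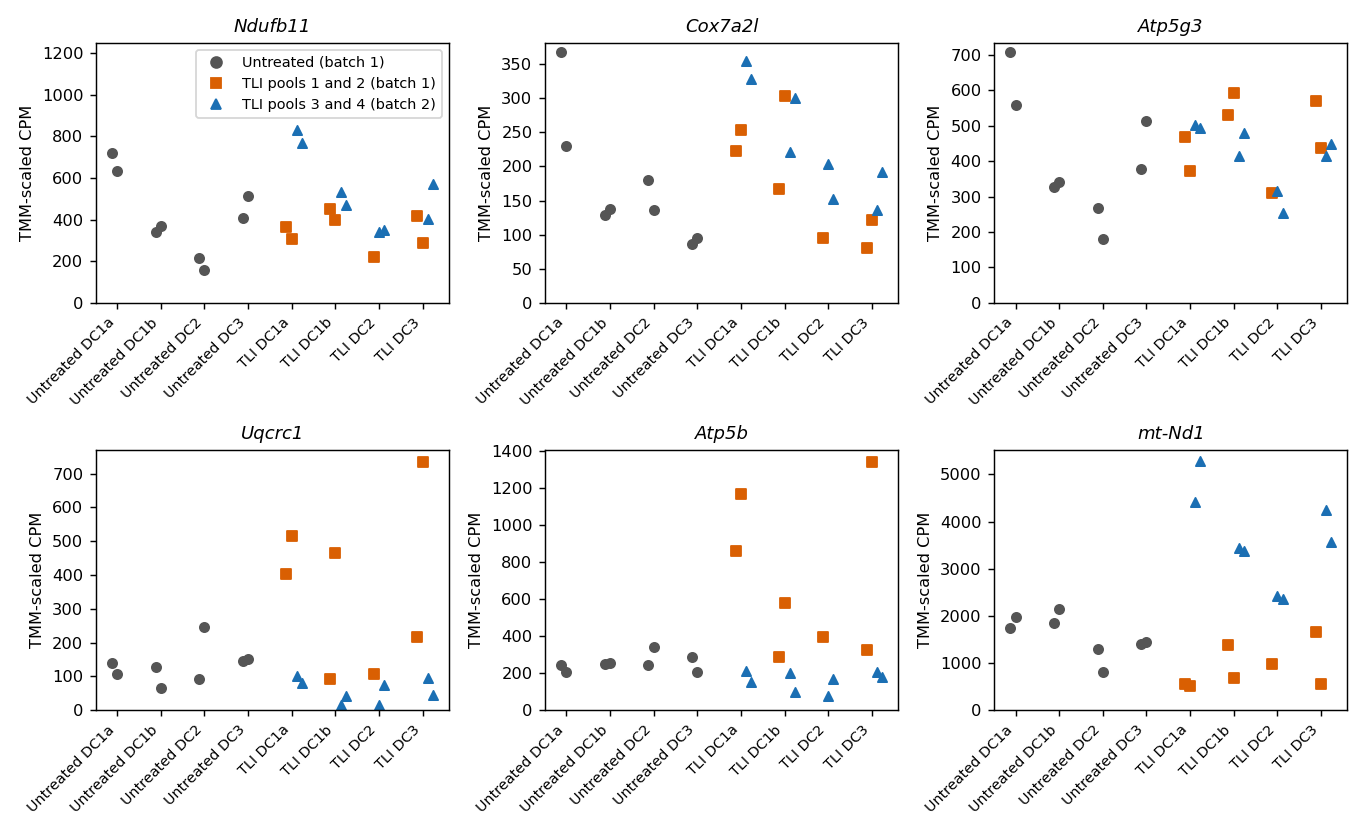
Level of 6 subunit genes (TMM-scaled CPM, axes from 0) in each of the 23 libraries by population and treatment, with the marker giving treatment and batch. Ndufb11, Cox7a2l and Atp5g3 were highest in DC1a cells among the untreated libraries; among TLI libraries Uqcrc1 and Atp5b were higher in most pools of batch 1 and mt-Nd1 was higher in all pools of batch 2.

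The contrast of the 2 batches was added once the split among the TLI libraries had been seen, and was the largest difference in these genes. In the batch 2 pools (8 libraries) as compared to the batch 1 pools (7 libraries), with the populations as groups, 55 of the 93 genes were higher and 10 lower at an adjusted p under 0.05; of all genes, 9.35% were higher and 8.07% lower. The batches hold different pools of mice, so batch and pool cannot be told apart. The TLI libraries came from 4 pools, 2 in each batch. The fit took libraries of different populations from the same pool as independent. The p-values of this contrast therefore rest on more libraries than there were pools, and may be too small. The median log2 fold change was 0.71 over the nuclear genes and 1.84 over the mitochondrial genes, as compared to -0.23 over all genes tested; with DESeq2's size factors the nuclear median was 0.57. All 13 mitochondrial genes were higher in batch 2, with log2 fold changes from 1.01 (mt-Nd5) to 2.68 (mt-Nd2).

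mt-Nd1, a membrane core subunit of complex I, had 514, 677 and 1659 CPM as the lowest, median and highest of the 7 libraries of batch 1, and 2360, 3496 and 5282 CPM in batch 2. The 8 untreated libraries were at 812, 1595 and 2152 CPM, with a median between the others and a range that overlapped that of batch 1. The batch 2 libraries lay above all others, with a log2 fold change of 2.04 ± 0.27 against batch 1 (SE, adjusted p = 7.66e-05). For mt-Nd2 the batch 1 libraries were at 65.9, 141 and 450 CPM and those of batch 2 at 849, 1238 and 1938 CPM (log2 fold change 2.68, adjusted p = 6.99e-05). mt-Atp6 (2.43), mt-Nd6 (2.41) and mt-Nd3 (2.27) followed, and mt-Nd3 was at 0 CPM in TLI DC1a pool 2. The mt-Nd3 call was lost in 10 of 21 alternatives (adjusted p from 0.0513 to 0.0785), 8 of which left out 1 library. Small nuclear subunits rose beside them: Ndufa1, an accessory subunit of complex I, was at 154, 271 and 532 CPM in batch 1 and at 955, 1164 and 1752 CPM in batch 2, with no overlap (adjusted p = 8.63e-06). In complex IV, Cox7c was at 99.1, 168 and 330 CPM in batch 1 and at 549, 728 and 1151 CPM in batch 2.

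Uqcrc1, Uqcrc2 and Uqcrfs1 of complex III, and Atp5b and Atp5a1 of the catalytic head of ATP synthase, were lower in batch 2. Uqcrc1, a core protein of complex III, was at 92.8, 403 and 734 CPM in batch 1 and at 15.0, 60.0 and 102 CPM in batch 2 (log2 fold change -2.55 ± 0.47, SE, adjusted p = 0.00122), where the batches overlapped through TLI DC1b pool 1. Atp5b, the catalytic beta subunit, was at 289, 578 and 1343 CPM in batch 1 and at 74.8, 173 and 210 CPM in batch 2, without overlap (-1.99 ± 0.30, SE, adjusted p = 0.000206). Ndufa9 (-1.90), Uqcrc2 (-1.84) and Atp5d (-1.72) came next, and Sdhd, Ndufa10, Atp5a1, Uqcrfs1 and Sdhb made up the 10 lower genes. In complex II no gene was higher, 2 of 4 were lower, and Sdha was at a log2 fold change of 0.26 (adjusted p = 0.663). Within complex III the 8 nuclear genes split, with 5 small subunits higher (Uqcr10, Uqcr11, Uqcrb, Uqcrh and Uqcrq) and Uqcrc1, Uqcrc2 and Uqcrfs1 lower. Cyc1, a further nuclear gene of complex III, was not among the symbols chosen and is given below.

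**Figure D4:**
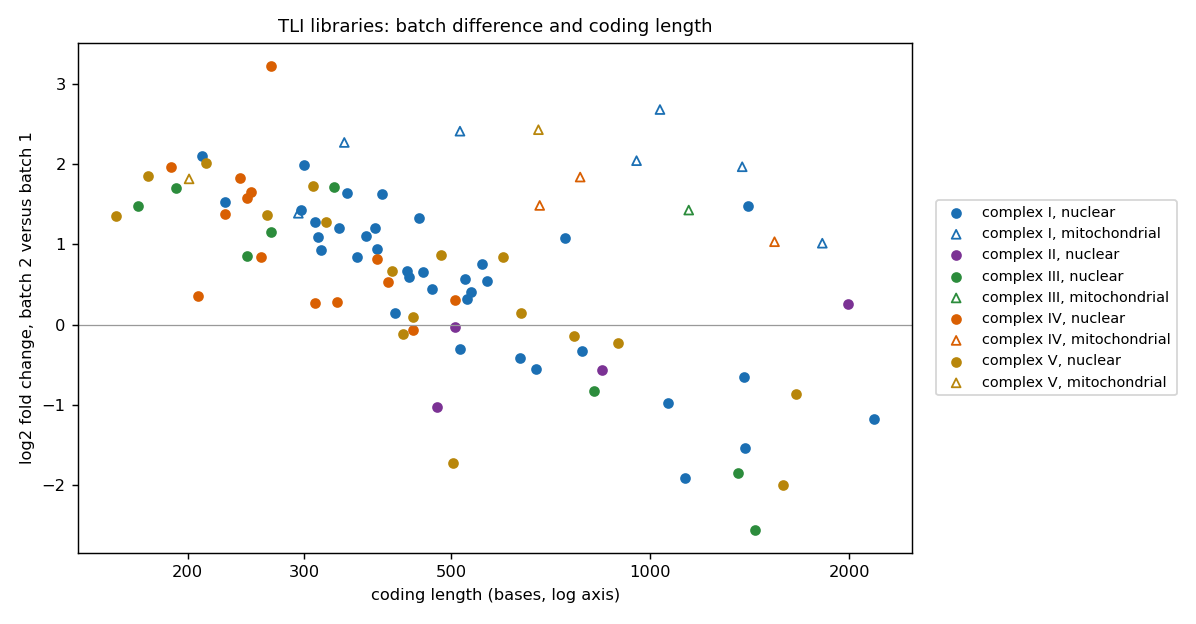
Log2 fold change of batch 2 against batch 1 in the TLI libraries for each tested subunit gene against its coding length in bases (log axis), with colours for the complex, filled circles for nuclear and open triangles for mitochondrially encoded genes. Nuclear genes under 300 bases had a median of 1.52 and those of 900 to under 1500 bases a median of -1.54, whereas the mitochondrial genes were above 1 at every length.

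Over the nuclear genes this difference followed coding length. The median log2 fold change was 1.52 in the 19 genes under 300 bases, 0.94 in 26 genes of 300 to under 450 bases, 0.15 in 23 of 450 to under 900, -1.54 in 7 of 900 to under 1500 and -1.02 in 4 of 1500 bases or more. Of the 68 genes under 900 bases, 40 were called higher and 4 lower, and of the 11 longer ones 1 was called higher (Ndufv3) and 6 lower. Pearson's r was -0.76 over the 79 genes (Spearman's rho -0.79), as compared to 0.06 (0.08) over the 13939 other coding genes. Binned alike, those other genes had medians of 0.53, 0.03, -0.59, -0.76 and -0.21. Of the mitochondrial genes, mt-Atp8 with 201 coding bases had a log2 fold change of 1.81, mt-Nd2 with 1035 one of 2.68 and mt-Nd5, the longest with 1821, one of 1.01. Markers of other cells moved with the batch. Besides the erythroid markers given above, the 6 natural killer cell markers summed to 60.1 to 2624 CPM in batch 1 and to 0 to 36.0 CPM in batch 2, and the 6 T cell markers to 86.1 to 422 CPM and to 2.30 to 34.0 CPM, each without overlap. The 8 monocyte and macrophage markers were higher in batch 1 within each population, at 1444 and 1560 CPM against 590 and 467 CPM in DC1a, 22834 and 25875 against 9583 and 8305 in DC1b, 12452 against 5276 and 6310 in DC2 and 1802 and 3124 against 899 and 1052 in DC3 cells. The neutrophil markers overlapped, at 4.87 to 23290 CPM in batch 1 and 3.97 to 10208 CPM in batch 2. The part of these cells and of transcript length in the difference was not tested.

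TLI was set against no treatment within each population, and here the answer turned on the batch. In the fit of all libraries with a term for batch, edgeR called 0 of the 93 genes in each population. No untreated library was in batch 2, so this contrast rests on batch 1 and on a batch shift taken as equal in all populations. It is therefore not separate from the comparison within batch 1 given below. In DC1a cells 0.0102% of all genes were called, 33 subunit genes were past an unadjusted p of 0.05 (9.76% of all genes), and DESeq2 called 3 (3.74%). In DC1b cells the same figures were 0.413%, 20 genes (12.4%) and 2 genes (6.28%), in DC2 cells 0.0612%, 7 genes (9.01%) and 2 genes (4.42%), and in DC3 cells 0.0255%, 9 genes (10.4%) and 2 genes (3.63%). The median log2 fold change of the nuclear genes was -0.59 in DC1a, 0.14 in DC1b, 0.26 in DC2 and -0.22 in DC3 cells, and that of the mitochondrial genes -0.90, -1.09, -0.53 and -0.44. In DC1b cells all 9 lower genes of the 20 were mitochondrial and all 11 higher ones nuclear. Among DC1a cells 29 of the 33 genes were lower; the other 4, all higher, were among the longer genes, which had a median of 1.08 as compared to -0.63 for the shorter ones. Whether the populations differed in their response was tested in the same fit: 0 of the 93 genes passed (0.0357% of all genes), 7 were past an unadjusted p of 0.05 (7.82%), and DESeq2 called 0 (1.57%). The batch shift was not equal in the data. Nuclear sums of TLI DC1a cells were 19832 and 17409 CPM in batch 1 and 43913 and 45960 CPM in batch 2. Those of TLI DC1b cells were 26400 and 23963 CPM and 27876 and 36180 CPM. The absence of calls therefore does not show that the responses were alike.

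Within batch 1 alone, where TLI and untreated libraries stand side by side, 0 subunit genes were called in any population. The TLI DC2 cells of that batch are 1 library, which the fit assumes to vary like the others. The nuclear medians there were -1.02 in DC1a, 0.38 in DC1b, 0.26 in DC2 and -0.15 in DC3 cells, and the mitochondrial medians -1.70, -0.90, -0.10 and -0.33. In DC1a cells the nuclear sum was 31741 and 28683 CPM untreated and 19832 and 17409 CPM in TLI pools 1 and 2, and the mitochondrial sum was 20905 and 21807 CPM untreated and 8737 and 7001 CPM under TLI, without overlap in either. In DC1b cells the nuclear sum was higher under TLI, at 26400 and 23963 as against 18145 and 19464 CPM. Markers of other cells differed too. In DC1b cells plasmacytoid dendritic cell markers were at 2392 and 2807 CPM untreated and 134 and 131 CPM in TLI pools 1 and 2. Monocyte and macrophage markers there were at 2984 and 5028 against 22834 and 25875 CPM. In DC1a cells erythroid markers were at 1618 and 140 CPM untreated and 128376 and 25619 CPM under TLI. Their part in the sums was not tested.

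With the TLI pools of batch 2 in their place, every subunit gene that was called was higher under TLI. In DC1a cells 9 of the 93 genes were called (0.225% of the 18666 genes tested in that fit), in DC1b cells 14 (2.91%), in DC2 cells 40 (3.76%) and in DC3 cells 12 (0.798%). Here the treatment and the batch cannot be told apart. The nuclear medians were 0.34, 0.63, 1.11 and 0.57 and the mitochondrial medians 1.15, 0.57, 1.18 and 1.28. In all 4 populations 6 genes were called, all small: Cox7a2, Cox7b, Cox7c and Ndufa4 of complex IV and Atp5l and Atp5mpl of complex V. Of mitochondrial genes, 2 were called in DC1a, 0 in DC1b, 6 in DC2 and 6 in DC3 cells. Cox7b was at 223 and 181 CPM in untreated DC2 cells, 317 CPM in TLI DC2 pool 1 and 895 and 772 CPM in pools 3 and 4, and its log2 fold change for the pools of batch 2 was 2.11 ± 0.18 (SE, adjusted p = 0.000379).

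**Figure D5:**
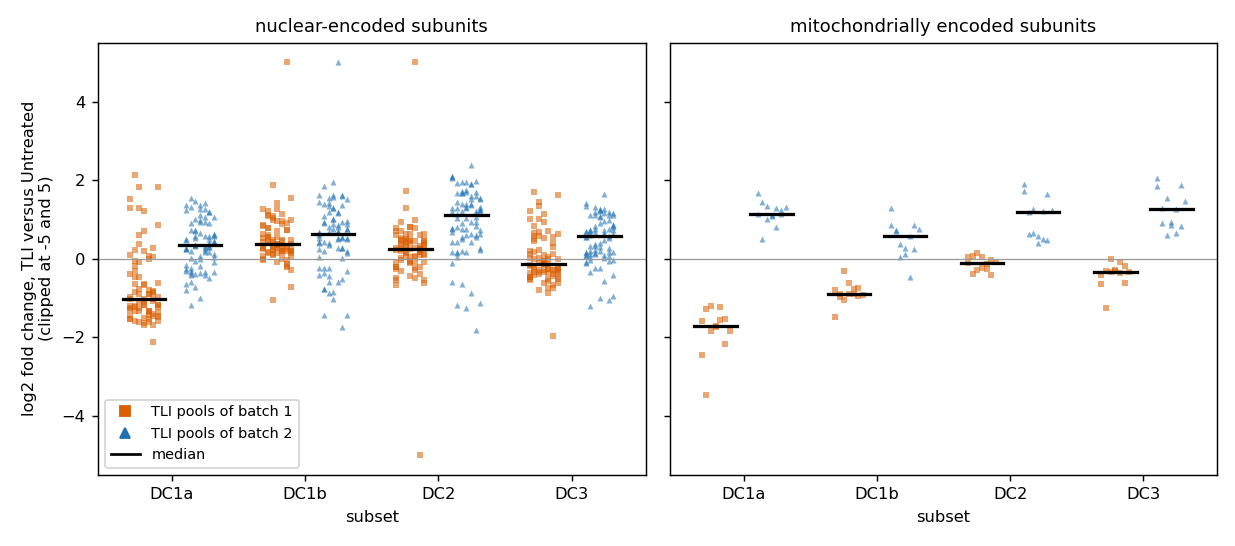
Log2 fold change of TLI against untreated libraries for each subunit gene in each population, with the TLI pools of batch 1 (orange squares) and batch 2 (blue triangles) fitted apart, nuclear genes on the left and mitochondrially encoded genes on the right; bars are medians, and values beyond the axis are drawn at its edges. Mitochondrial medians were below 0 with the pools of batch 1 (-1.70, -0.90, -0.10 and -0.33) and above 0 with those of batch 2 (1.15, 0.57, 1.18 and 1.28).

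Other mitochondrial genes were read from lists of assembly factors, electron carriers and coenzyme Q synthesis, regulators of mitochondrial transcription, the citrate cycle, import and carriers, and mitochondrial ribosomal proteins. Cycs, cytochrome c, was lower in DC2 than in DC1a cells, both untreated (log2 fold change -1.68, adjusted p = 0.0101) and under TLI (-1.12, adjusted p = 0.0172), and higher in TLI DC3 than in TLI DC2 cells (1.43, adjusted p = 0.00532). Atpif1, the inhibitor of ATP synthase, was lower in untreated DC2 (-2.67, adjusted p = 0.00301), untreated DC1b (-2.07, adjusted p = 0.0276) and TLI DC2 cells (-1.67, adjusted p = 0.0073), each against DC1a cells. Mpc2, a subunit of the mitochondrial pyruvate carrier, was lower in the same 3 comparisons (-1.35, -1.44 and -0.95), and Coa5, which takes part in the assembly of complex IV, in DC2 cells of both treatments (-1.76 untreated and -1.20 under TLI).

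In untreated DC2 against DC1a cells, where 1.05% of all genes were lower, the members called were 3 of 78 mitochondrial ribosomal proteins (Mrpl18, Mrpl20 and Mrpl42), 1 of 33 assembly factors of complexes II to V, 1 of 21 carrier genes, 1 of 20 citrate cycle genes and 1 of 26 genes of import and carriers, all lower, and 0 of 16 assembly factors of complex I and 0 of 24 regulators. In TLI DC2 against DC1a cells Ndufaf6, an assembly factor of complex I (-2.62), and Ucp2, an uncoupling protein (-1.93), were also lower, and Pdha1 of the pyruvate dehydrogenase complex was higher (2.06). The regulators Tfam, Nrf1, Esrra, Ppargc1a and Ppargc1b, and Cyc1 of complex III, were not past the threshold in any comparison of populations or treatments (lowest adjusted p 0.0986, for Ppargc1b). Between the batches Cycs was higher in batch 2 (0.95), and Cyc1 (-1.27), Idh2 of the citrate cycle (-3.14) and 11 of 26 genes of import and carriers, among them Slc25a5 (-1.24) and Vdac1 (-1.30), were lower, where 8.07% of all genes were.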

How the data were processed

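RNA of dendritic cells sorted from mouse spleen was sequenced in 23 libraries (SMARTseq v4 cDNA, KAPA HyperPlus libraries). Per the labels and the study's methods, the authors trimmed reads with Trimmomatic, aligned them to GRCm38 with HISAT2 and deposited estimated counts per Ensembl gene made with StringTie; these are whole numbers, so short transcripts and near-identical copies depend on how StringTie shared out reads. Symbols came from GENCODE M21 (47224 of 47729 identifiers).

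Counts were tested with edgeR 4.0.16 (filterByExpr, TMM, quasi-likelihood test) in R 4.3.3, with the 8 groups and batch as terms in 1 fit (14 residual degrees of freedom), Benjamini-Hochberg adjusted over 19597 genes and called at 0.05. The method was tested on simulated data. The fit was planned for counts, and the whole-number estimated counts needed no rounding. A count of 3 in a library equals 0.0811 to 0.156 CPM. The p-values measure the spread between libraries of the same group, which came from different pools. Libraries of different populations from the same pool were taken as independent, also in the contrast of the batches. DESeq2 1.42.0 was an alternative. Libraries with the same pool number within a treatment came from the same mice by the labels; correlations of their deviations over 33 pairs ran from -0.162 to 0.0673. Near copies were found with BLAST 2.17.0. Genes named are, per comparison, the 5 highest and lowest called with a mean of at least 5 CPM, plus the core subunits, the mitochondrial genes, the paralogs, and in the lists the largest changes and named regulators; further called genes, Cox7c, Ndufv3 and the shared genes of the TLI fits were chosen after their values were seen. The members, gene lists and comparisons were chosen with earlier results of these data known. A marker of the erythroid list is not reported here and was left out of its sum.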

Additional observations from a re-analysis of the deposited data

Results flagged for a closer look

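In TLI DC3 cells pool 2 stood apart for both Atp5b and Atp5a1, of the catalytic head of ATP synthase. Atp5b was at 1343 CPM there, as compared to 179 to 326 CPM in the other 3 libraries, and Atp5a1 at 675 CPM, as compared to 200 to 274 CPM. In each the gap to the nearest library was over the critical share of the range for 4 samples. Of 138 groups of 4 libraries examined, 2 stood out in this way, and chance flags about 1 in 20. The same library also had the highest Uqcrc1 level (734 CPM).

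Direction under TLI differed between populations for 2 genes, with every TLI library on one side of every untreated library in one population and on the other side in another. Ndufb7, the complex I subunit that was lower in untreated DC1b cells, had a difference in mean log2 level between TLI and untreated libraries of -0.54 in DC1a, 0.94 in DC1b, 0.81 in DC2 and -0.25 in DC3 cells, so that DC1a and DC3 cells each differed in direction from DC1b and DC2 cells. Cox5a was at -0.57 in DC1a and 0.62 in DC1b cells. The test of the difference among populations in edgeR did not pass after adjustment (Ndufb7, adjusted p = 0.372; Cox5a, adjusted p = 0.603). In all, 276 pairs of populations over 46 genes were examined.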

How the results depend on the processing

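Counts are of the 93 subunit genes called. None of the named called genes changed sign in the settings run. Median log2 fold changes that no test covers did, between the TLI pools of the batches, as given in the report, and without a batch term, where the mitochondrial medians of TLI against untreated cells were 0.41, 0.05, 0.83 and 0.65 in place of -0.90, -1.09, -0.53 and -0.44. Between batches the count was 62 to 71 genes, against 65, in settings that keep all TLI libraries. With DESeq2 the counts were 6 in untreated DC1b, 21 in untreated DC2 and 1 in untreated DC3 cells, and 6 in TLI DC2 cells, all against DC1a cells; 3, 2 and 2 for TLI DC2 versus DC1b, DC3 versus DC1b and DC3 versus DC2; and 3, 2, 2 and 2 for TLI against untreated DC1a, DC1b, DC2 and DC3 cells. For untreated DC2 against DC1a cells the count was 4 with DESeq2's size factors in edgeR, 5 with scaling without the mitochondrial genes, 18 with genes of at least 10 counts in every library, 2 without a batch term and 16 with untreated libraries alone. That low-count filter gave 1 in untreated DC3 against DC1a and 1 in TLI DC3 against DC1b cells. The call in untreated DC1b cells fell to 0 with no filter, with no batch term and with the pool of mice as a block. The calls in TLI DC2 and DC3 against DC1a cells fell to 0 with scaling without the mitochondrial genes, no filter, no batch term, TLI libraries alone and batch 1 pools. With batch 2 pools the counts were 5 and 0, and TLI DC1b against DC1a cells gave 1. TLI against untreated, with batch 2 pools, gave 9, 14, 40 and 12. The cause of these changes was not tested. The pool block gave 7 in untreated DC2 and 2 in TLI DC2 cells, and pool number as a block gave 0 for each TLI effect. Without 1 library, counts ran from 0 to 0 in untreated DC1b, 1 to 2 in untreated DC2, 0 to 1 in TLI DC2 and 0 to 1 in TLI DC3 against DC1a cells, 0 to 1 for TLI against untreated DC2 cells (1 without untreated DC2 pool 2) and 59 to 70 between batches. The highest nuclear sum was 3.42 times the lowest, and 2.59 times with CPM of the library total. Untreated populations had 2 libraries each, which limits every comparison with them.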
